A study of Homo sapiens with 6 samples.

Results

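The genes of the cytosolic ribosome encode the proteins that, with ribosomal RNA, form the small and large subunits of the machine that translates every cellular mRNA. Members were the protein-coding genes on the autosomes and chromosome X whose symbols start with RPL or RPS followed by a number, with or without an A, X or L suffix, together with RPLP0, RPLP1, RPLP2, RPSA and FAU, and without the RPS6K kinases. This gave 82 genes, 33 of the small and 49 of the large subunit, of 19630 protein-coding genes whose 5′ end could be placed. They lie on 21 chromosomes, with 12 on chromosome 19 and 4 on chromosome X, and 29 of them host small nucleolar RNAs in their bodies. The question here was which of their promoters carried a listed peak of CTCF or of SMC1 in each condition, and where those peaks ranked.

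CUT&Tag, in which an antibody tethers a transposase that cuts and tags nearby DNA for sequencing, had been run in IMR90, a line of human lung fibroblasts of fetal origin, with 1 library per group. Antibodies against CTCF and SMC1 were each used in control cells, in cells given ICM and in senescent cells. ICM is inflachromene, a small molecule that binds the nuclear proteins HMGB1 and HMGB2, and the senescent cells had reached that state by serial passaging. The p number in the sample titles is 21, 16 and 34 for CTCF in control, ICM-treated and senescent cells, and 16, 16 and 34 for SMC1. The CTCF library of treated cells is marked as 6 days of ICM, whereas that for SMC1 carries no number of days. The high-passage group was assigned from the design text, because titles with 34 name no treatment. Condition therefore cannot be told apart from library, culture or, for CTCF, from the difference in p number between the control and the treated cells. The peak lists, from which the mitochondrial peak was left out, held 4673, 6728 and 8577 CTCF peaks and 14883, 17809 and 12927 SMC1 peaks in control, ICM-treated and senescent cells. Sequencing depth is unknown from such lists. Of 6 fibroblast genes used as a check of the cells (COL1A1, COL1A2, COL3A1, VIM, PDGFRA and THY1), 4 had a listed SMC1 peak at the promoter in each condition, although a peak list cannot give a level of expression.

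CTCF binds a long DNA motif through its zinc fingers and halts cohesin, the ring-shaped complex that extrudes chromatin loops and of which SMC1 is a subunit. Cohesin is found at active promoters as well as at CTCF sites. Ribosomal protein genes are among the most strongly transcribed genes of growing cells, and their transcripts typically start with a cytosine followed by a run of pyrimidines, the 5′ TOP start, through which nutrient signalling sets their translation. Ribosome production is tied to growth arrest, since some free ribosomal proteins bind MDM2, the protein that keeps p53 low.

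Promoter sequences are shown for 5 members whose start in RefSeq (GRCh38.p14) is also the 5′ end used for counting. RPL26, RPL36 and RPS19 were present in all 6 peak lists with the highest mean CTCF ranks among such genes. RPL38 had a CTCF peak in each condition and no SMC1 peak at its promoter, and RPS7 had no peak in any list. Each run holds the 250 bases before the start on the gene's own strand, and capitals mark the letters of the motifs searched. These were TATAAA (the TATA box, own strand only) and, on both strands, CCGGAAG (ETS factors), AAGATGGCG (YY1), GGGCGG (GC box), CTCGCGAG (the palindrome linked to ZBTB33) and AGGGGGC or AGGTGGC (part of the CTCF core).
RPL26 promoter: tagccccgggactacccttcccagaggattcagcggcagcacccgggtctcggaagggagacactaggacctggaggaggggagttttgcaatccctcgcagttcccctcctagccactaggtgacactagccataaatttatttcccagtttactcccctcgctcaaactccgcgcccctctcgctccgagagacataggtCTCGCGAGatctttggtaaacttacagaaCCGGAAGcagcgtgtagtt
RPL36 promoter: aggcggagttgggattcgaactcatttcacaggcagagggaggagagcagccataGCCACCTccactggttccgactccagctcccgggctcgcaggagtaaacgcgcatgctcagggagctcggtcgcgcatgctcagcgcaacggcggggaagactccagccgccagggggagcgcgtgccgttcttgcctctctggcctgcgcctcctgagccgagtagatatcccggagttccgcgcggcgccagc
RPS19 promoter: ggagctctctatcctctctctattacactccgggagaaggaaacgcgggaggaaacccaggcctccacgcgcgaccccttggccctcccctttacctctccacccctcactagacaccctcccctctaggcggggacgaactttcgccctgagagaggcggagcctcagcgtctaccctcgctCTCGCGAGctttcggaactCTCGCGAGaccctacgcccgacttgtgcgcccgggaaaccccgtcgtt
RPL38 promoter: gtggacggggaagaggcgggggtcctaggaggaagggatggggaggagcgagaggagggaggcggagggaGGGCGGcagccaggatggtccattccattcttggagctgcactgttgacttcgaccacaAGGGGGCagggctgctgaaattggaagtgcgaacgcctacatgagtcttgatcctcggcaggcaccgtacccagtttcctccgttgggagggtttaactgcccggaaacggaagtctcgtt
RPS7 promoter: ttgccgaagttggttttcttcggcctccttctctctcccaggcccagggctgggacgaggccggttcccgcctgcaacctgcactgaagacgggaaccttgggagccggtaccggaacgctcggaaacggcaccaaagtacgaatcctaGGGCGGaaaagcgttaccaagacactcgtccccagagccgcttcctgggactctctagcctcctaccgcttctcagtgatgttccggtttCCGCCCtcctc
The RPL26 run is chr17:8383194-8383443 on the minus strand. On the plus strand, that of RPL36 is chr19:5690045-5690294, that of RPS19 is chr19:41860005-41860254, that of RPL38 is chr17:74203428-74203677 and that of RPS7 is chr2:3575010-3575259. The CTCGCGAG palindrome starts 48 bases before the RPL26 start and occurs in a pair, 67 and 48 bases before the start, at RPS19. RPL38 holds AGGGGGC 121 bases before its start, with the CTCF summits of the 3 lists 31, 87 and 78 bp upstream. A summit is the midpoint of the region in which the authors' peak reaches its highest signal. A match of letters is a description and not evidence of a bound factor.

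RefSeq promoters were at hand for 65 of the 82 members and for 15812 protein-coding genes. The 5′ TOP start, here a C followed by 4 pyrimidines, was found in 43 of 65 members (66.2%) against 4.59% of all promoters. Of the motifs, CTCGCGAG occurred in 6 of 65 members (9.23% against 1.54% of all promoters of the same length) and CCGGAAG in 22 (33.8% against 14.1%). AAGATGGCG occurred in 5 (7.69% against 2.69%), GGGCGG in 37 (56.9% against 58.3%) and TATAAA in 3 (4.62% against 6.95%). Mitochondrial ribosomal protein genes, which build a separate ribosome, held the TOP start in 6 of 69 promoters and CCGGAAG in 29. They held AAGATGGCG in 13 and CTCGCGAG in 1. Ribosome biogenesis genes held the TOP start in 6 of 60 promoters, CCGGAAG in 21, AAGATGGCG in 4 and CTCGCGAG in 4. Translation factors held them in 12, 13, 3 and 0 of 47, in the same order.

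The TOP start and CCGGAAG had similar shares in members with and without an SMC1 peak. Among members listed for SMC1 in control the TOP start was present in 25 of 35, and among the others in 18 of 30. CCGGAAG was present in 12 of 35 and in 10 of 30, respectively. The rarer AAGATGGCG was present in 1 of 35 and 4 of 30, and CTCGCGAG in 4 of 35 and 2 of 30. For CTCF, either spelling of the core letters occurred in 5 of 14 members with a peak in control, which were RPL36, RPL38, RPLP0, RPS14 and RPS15, and in 4 of 51 without one, against 23.8% of all promoters. Most listed CTCF members hence lacked those exact letters within the 300 bases searched, 250 before and 50 after the start. Other spellings, weaker forms and more distant copies of the motif were not searched, so these peaks cannot be said to lack a CTCF motif. The paper states that it kept only CTCF peaks holding a canonical motif, and whether the lists used here carry that filter was not checked. At RPL6 and RPL41 the bases searched lay outside the listed CTCF peak. The RPL6 start searched was 7393 bp from the 5′ end used for counting, and the RPL41 control peak began 906 bp from its start.

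A promoter peak was a peak that overlapped the 5′ end extended by 1 kb on either side. For SMC1 46 members had one in control (56.1%, exact 95% interval 44.7 to 67.0), 45 after ICM (54.9%, 43.5 to 65.9) and 30 in senescent cells (36.6%, 26.2 to 48.0). The shares over all protein-coding genes were 33.3%, 29.2% and 24.3%. For CTCF the counts were 20 in control (24.4%, 15.6 to 35.1), 20 after ICM (24.4%) and 18 in senescent cells (21.95%, 13.6 to 32.5), and the shares over all genes were 10.6%, 15.1% and 11.3%. Ribosomal protein promoters were thus listed more often than the average gene in every list. All protein-coding genes include genes that fibroblasts do not transcribe, and the part of transcription in this margin was not tested. The intervals cover counting over genes only, not variation between cultures.

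**Figure D1:**
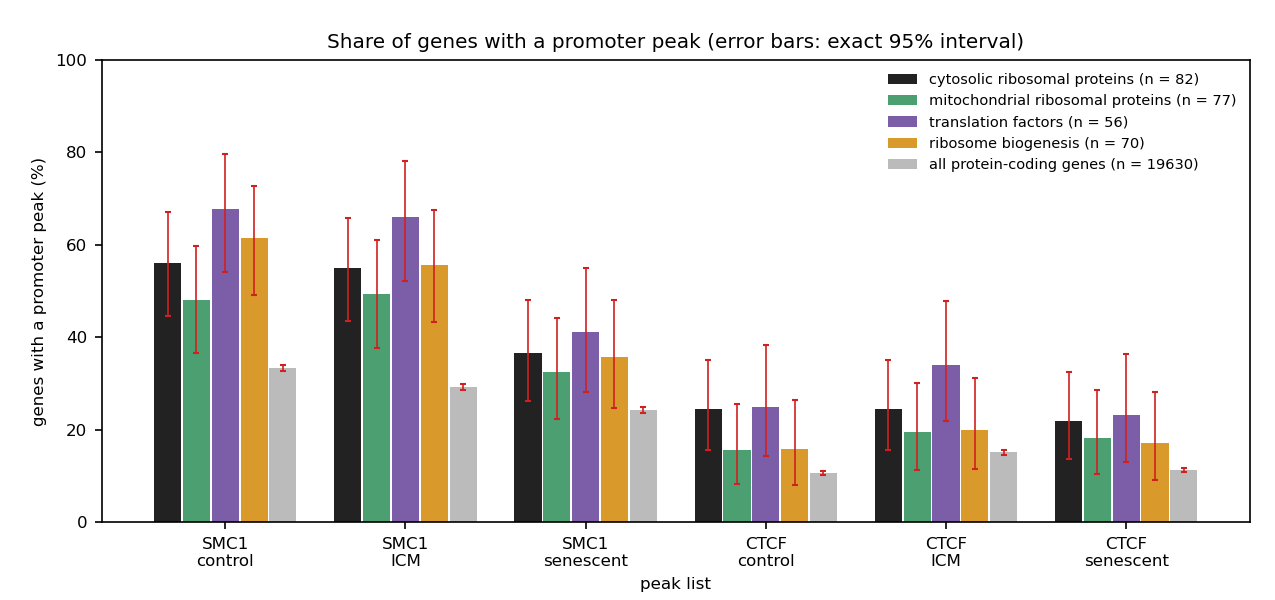
The bars give the percent of genes with a promoter peak in each of the 6 lists for cytosolic ribosomal protein genes and for 4 other gene groups, and error bars are exact 95% intervals. Cytosolic ribosomal protein genes reach 56.1% in SMC1 control and 36.6% in SMC1 senescent, and the 3 other translation groups fall near them and above all protein-coding genes.

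Genes of related function had shares of the same order. The SMC1 counts in control, ICM-treated and senescent cells were 37, 38 and 25 of 77 mitochondrial ribosomal protein genes. They were 38, 37 and 23 of 56 translation factors and 43, 39 and 25 of 70 ribosome biogenesis genes. For CTCF the same groups had 12, 15 and 14 genes, 14, 19 and 13 genes, and 11, 14 and 12 genes. The 95% intervals of the cytosolic and mitochondrial ribosomal protein genes overlapped in all 6 lists.

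Of the 82 members 59 had a promoter peak in at least 1 list, 54 for SMC1 and 24 for CTCF, and 19 for both antibodies. The counts per antibody over any list are not set beside all genes here, so they are a tally of members only. The 23 without any (28.0%, against 59.2% of all genes) included RPL3L, RPL4, RPL10L, RPL13, RPL13A, RPL14, RPL17, RPL19, RPL22, RPL23, RPL24, RPL29, RPL34, RPL35A, RPL39, RPS2, RPS4X, RPS7, RPS10, RPS18, RPS21 and RPS27. These lists keep only the strongest 1% of regions, so absence from a list is not absence of binding. RPL4 had a peak of both antibodies over its gene body in all 3 conditions, at least 5172 bp from its 5′ end. RPL7A, RPL41 and RPL3 set the edge of the 1 kb window. An SMC1 peak in ICM-treated cells began 908 bp from the RPL7A start. The CTCF peak that reaches from inside RPL41 past its 3′ end began 906 bp and 893 bp from its start in control and ICM-treated cells and was counted, while in senescent cells it began 1177 bp away and was not. At RPL3 it was 1237 bp away in control, 912 bp after ICM and 2000 bp in senescent cells, so only the ICM list counted it.

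**Figure D2:**
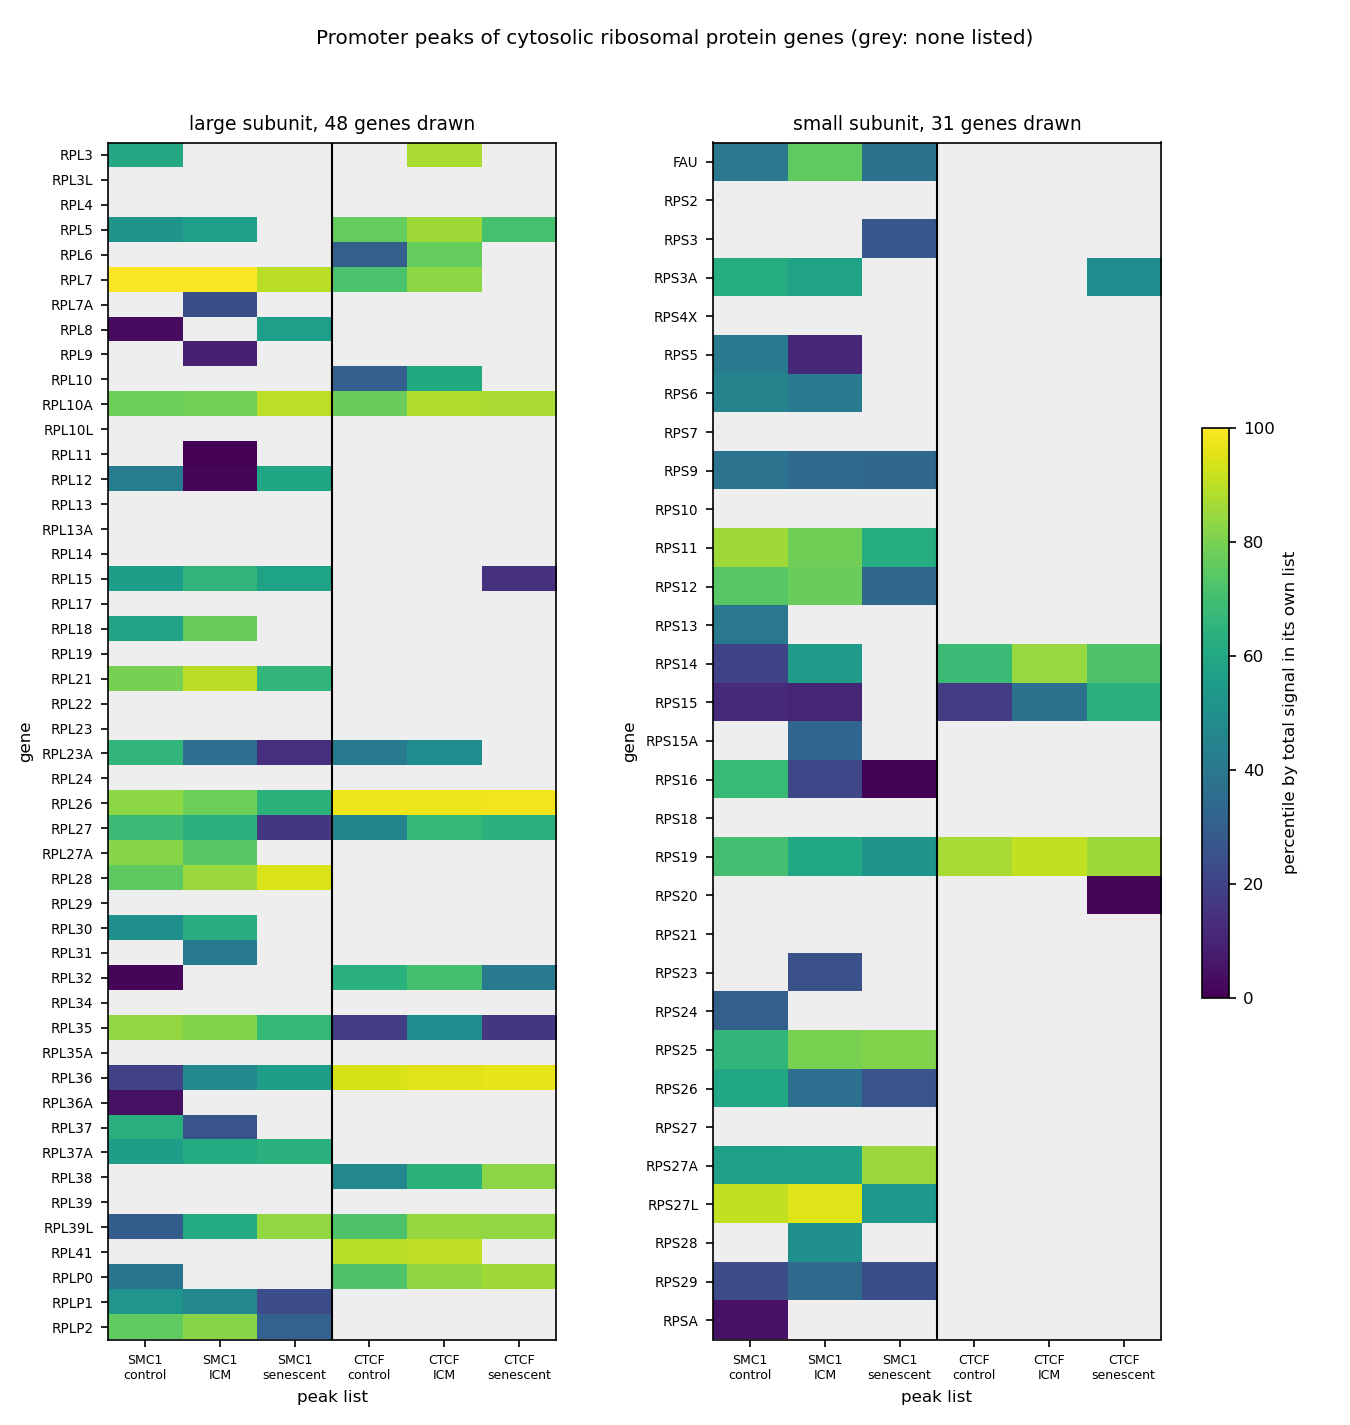
Each row is a member, with 79 of the 82 drawn, and each column is a peak list, and colour gives the percentile of the promoter peak by total signal within its own list, with grey where no peak was listed. RPL26 and RPL36 are near the top of the CTCF lists, RPL7 leads the members in the SMC1 control and ICM lists, and members without a listed peak are grey throughout.

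Subunits had similar SMC1 shares, while CTCF was listed at a larger share of large-subunit genes, with a smaller gap in senescent cells than in control or after ICM. SMC1 promoters made up 20, 20 and 13 of the 33 small-subunit genes and 26, 25 and 17 of the 49 large-subunit genes in control, ICM-treated and senescent cells. CTCF promoters made up 4, 4 and 6 of the small-subunit genes (12.1% in control, 3.40 to 28.2) and 16, 16 and 12 of the large-subunit genes (32.7% in control, 19.9 to 47.5), with intervals that overlapped. Hosts of small nucleolar RNAs had 17, 14 and 9 SMC1 promoters of 29, and the other members had 29, 31 and 21 of 53.

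The order of CTCF peaks was led by RPL26 and RPL36, proteins of the large subunit. By total signal, which is coverage summed over the peak, the RPL26 peak stood at percentile 97.5, 97.4 and 97.9 of its list in control, ICM-treated and senescent cells. By highest signal it stood at 98.5, 99.1 and 96.5. It spanned chr17:8382421-8385493 in control with a width of 3073 bp, and measured 1574 bp and 1115 bp in the other lists. RPL36 followed at percentile 94.0, 95.7 and 96.1, with a control peak at chr19:5688898-5691636, and its window was the only one that held more than 1 peak of a list. By highest signal RPL36 stood at 95.5, 96.7 and 97.7, above RPL26 in senescent cells. RPS19, the small-subunit protein most often altered in Diamond-Blackfan anaemia, stood at 87.1, 90.7 and 85.3. RPL10A stood at 77.2, 88.2 and 87.2, and RPLP0 at 72.3, 83.3 and 85.6.

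In all 3 CTCF lists 14 members were present (17.1%, against 8.34% of all genes). Beside the genes above, they included RPL5, RPL27, RPL32, RPL35, RPL38, RPL39L, RPS14 and RPS15. RPL38, whose loss in mice alters the translation of Hox mRNAs, was named after its values had been seen. Its CTCF peak stood at 46.7, 64.1 and 82.7, and its nearest SMC1 peak was 544703 bp, 8535 bp and 8766 bp from the 5′ end in control, ICM-treated and senescent cells. A further 5 members were in the control and ICM lists only (6.10%, against 1.69%). These were RPL23A, RPL10, RPL41, RPL6 and RPL7, and the RPL7 window also holds the start of RDH10. The 5′ end used for RPL6 is that of its outermost transcript, at the start of PTPN11, and none of its CTCF peaks overlapped 1 kb around the starts that RefSeq's promoter table gives. RPS3A, RPL15 and RPS20 were listed for CTCF in senescent cells alone, at percentile 48.8, 14.1 and 1.9. Put as shares, 5 of the 20 members with a CTCF peak in control had none in senescent cells (25%, against 19.3% of all genes) and 1 of 20 had none after ICM (5.0%, against 5.24%). Of the 62 without a CTCF peak in control 1 had one after ICM (1.61%, against 5.65%) and 3 had one in senescent cells (4.84%, against 3.03%). With CTCF lists of equal length by total signal, 8 of the 20 had none in senescent cells (40%, against 43.96% of all genes). By highest signal it was also 8 (40%, against 56.6%), and 5 of 20 had none after ICM (25%, against 27.8%).

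The median percentile of member CTCF peaks was 70.05 in control, 83.7 after ICM and 71.4 in senescent cells. For all other protein-coding genes with a promoter peak it was 58.5, 55.9 and 55.4. Mitochondrial ribosomal protein genes had medians nearer those of members, at 64.8, 80.2 and 70.1. The medians were 35.2, 54.2 and 42.2 for translation factors and 49.3, 63.4 and 76.9 for ribosome biogenesis genes. A percentile rises when weaker peaks join a list, and the lists differ in length. Of 19 members in both lists 18 stood higher after ICM than in control, against 79.1% of all genes. With both lists cut to the length of the shortest CTCF list this became 12 of 19 (53.5% of all genes). Between control and senescent cells 9 of 15 stood higher (all genes 55.5%), and with equal lengths 3 of 12 did (31.2% of all genes).

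CTCF peaks at members were wider than SMC1 peaks. Their median width was 2124 bp in control, 2172.5 bp after ICM and 1333 bp in senescent cells, and for other genes 1930, 2156.5 and 1296 bp. In senescent cells 14 of 15 members had a narrower CTCF peak than in control (all genes 86.9%), and after ICM 7 of 19 did (all genes 30.0%). Median SMC1 widths were 902, 799 and 997 bp, and those of other genes 1018, 882 and 1114 bp. SMC1 peaks were narrower after ICM at 26 of 38 members (67.1% of all genes) and wider in senescent cells at 20 of 29 (52.7%). Width differs between whole lists, where the median CTCF peak spanned 1797, 1960.5 and 1120 bp.

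**Figure D3:**
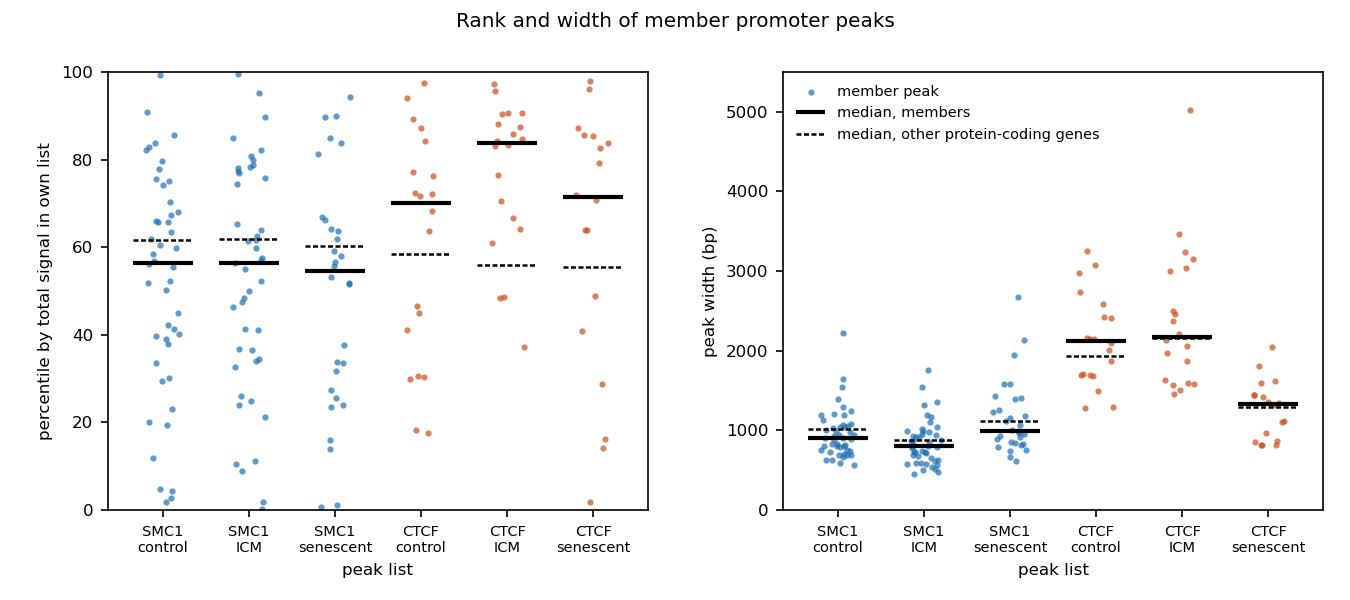
Each point is a member promoter peak, the left panel giving its percentile by total signal in its own list and the right panel its width in bp, with solid bars for the member median and dashed bars for other protein-coding genes. Member medians lie above the dashed bars for CTCF, at 70.05, 83.7 and 71.4, and below them for SMC1.

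As a group, SMC1 peaks at members ranked near those of other genes. Their median percentile by total signal was 56.5, 56.3 and 54.5 in control, ICM-treated and senescent cells, against 61.5, 61.9 and 60.3 for other genes. RPL7 stood at 99.2, 99.6 and 89.6, and because RDH10 starts in the same window, the peak cannot be assigned to either gene. RPL28, a large-subunit protein, stood at 75.1, 84.9 and 94.3. RPL10A stood at 77.8, 78.8 and 89.9. RPS27L, a paralog of RPS27 that p53 induces, stood at 90.9, 95.1 and 53.3 with a control peak at chr15:63157113-63158314. RPL21 stood at 79.6, 89.8 and 66.2, and RPL35, whose window also holds the start of ARPC5L, at 83.7, 80.9 and 66.8. Among members in all 3 SMC1 lists these 6 genes had the highest mean percentile over the lists, and their order differed between conditions. They did not lead each list. In senescent cells RPS27L stood below the member median, and RPS27A (84.9) and RPL39L (83.7) stood above RPL21 and RPL35.

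In all 3 SMC1 lists 28 members were present (34.1%, against 19.3% of all genes). A further 10 were in control and ICM only (12.2%, against 6.90%) and 7 in control only (8.54%, against 4.95%). RPL8 alone was in control and senescent cells. Of the 46 members with an SMC1 peak in control, 17 had none in senescent cells (36.96%, 23.2 to 52.5). That share was 35.6% over all genes, close to the share among ribosomal protein genes. RPL27A, RPL37, RPS3A, RPL3, RPL18 and RPL5 had the highest control ranks among the 17, at percentile 82.2, 63.5, 61.8, 60.5, 58.5 and 51.7. The windows of RPL27A and RPL18 also hold the starts of TRIM66 and SPHK2. Peaks missing in senescent cells had ranked lower in control, with a median percentile of 41.4 against 65.8 for those present in both, and for other genes the medians were 38.6 and 74.95. Only RPS3 was listed in senescent cells and not in control (1 of 36, 2.78%, against 4.25%), with a summit 1048 bp inside the gene.

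After ICM 8 of the 46 control members had no listed SMC1 peak (17.4%, against 21.3%). Of the 36 without one in control 7 had one after ICM (19.4%, 8.19 to 36.0, against 4.54%), and none of the 7 was in the senescent list. They were RPS28, RPL31, RPS15A, RPS23, RPL7A, RPL9 and RPL11, at percentile 50.04, 41.2, 32.6, 24.8, 24.0, 8.9 and 0.2, all at or below about the middle of the list. The windows of RPS28, RPL7A and RPL9 also hold the start of another gene, NDUFA7, MED22 and LIAS in turn. ICM alone thus accounted for 8.54% of members against 2.14% of all genes. The ICM list was the longest of the SMC1 lists. When the 3 lists were cut to the length of the shortest by total signal the count was 3 (3.66%, against 1.23%), and by highest signal it was 5 (6.10%, against 0.871%). In the other translation groups 7 of 40 mitochondrial ribosomal protein genes, 4 of 18 translation factors and 4 of 27 ribosome biogenesis genes entered in the same way.

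**Figure D4:**
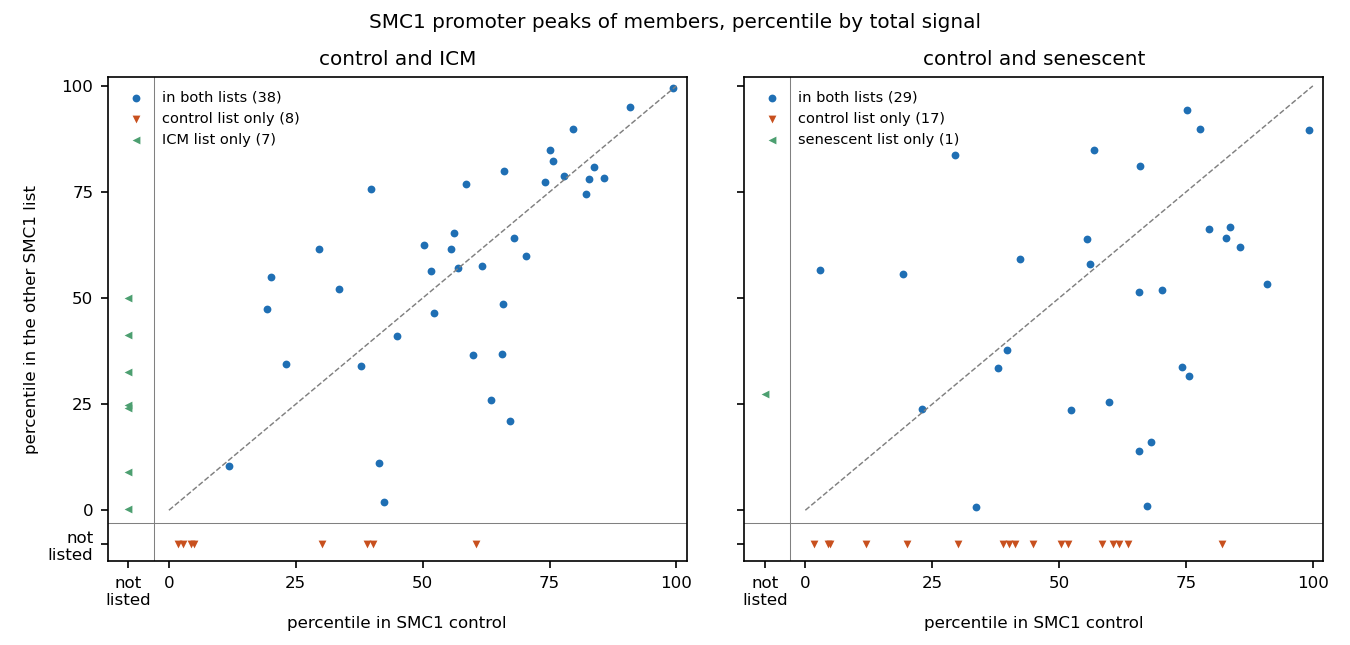
Each point is a member, placed by the percentile of its SMC1 promoter peak in control (horizontal) and in ICM-treated (left) or senescent cells (vertical axis), and triangles mark members listed on 1 side only. In the ICM panel 38 members are in both lists and 7 enter at percentile 50.04 or lower, whereas in the senescent panel 29 are in both and 17 are in control only.

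Among members in both SMC1 lists 20 of 38 stood at a higher percentile after ICM than in control (45.0% of all genes) and 11 of 29 did in senescent cells (37.8%). Neither share stood far from that of all genes, but a share gives the direction only. The median change in senescent cells was -13.4 percentile points at members and -4.86 over all genes. With lists of equal length it was -9.89 and -2.68. After ICM the median change was 0.277 at members and -1.14 over all genes, and -1.88 and -4.11 with equal lengths. The cause of these differences was not tested. RPL39L went from percentile 29.5 in control to 61.6 and 83.7, RPL23A from 65.7 to 36.7 and 13.9, RPS16 from 67.3 to 21.1 and 1.1, and RPL12 from 42.3 to 1.9 and 59.2. These examples were chosen after their values had been seen, and without replicates their shifts cannot be set against an error. The RPL12 window also holds the start of LRSAM1.

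The ribosomal stalk proteins recruit translation factors to the large subunit. RPLP0 had an SMC1 peak in control only, at percentile 39.0, although CTCF was listed there in all 3 conditions. RPLP1 was in each SMC1 list at 52.3, 46.4 and 23.6, and RPLP2 at 75.6, 82.2 and 31.6, neither with a CTCF peak. The RPLP2 window also holds the start of PIDD1. Both carrier genes, which encode a ribosomal protein fused to ubiquitin (RPS27A) or to a ubiquitin-like protein (FAU), were in all 3 SMC1 lists and in no CTCF list. RPS27A stood at 56.9, 57.1 and 84.9 and FAU at 39.8, 75.7 and 37.7, and each shares its window with another start, that of CLHC1 and of MRPL49.

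Paralogs with an L suffix were split. RPL39L, which was in all 6 lists, had CTCF peaks at percentile 72.2, 84.1 and 83.7, whereas the parent gene RPL39 had no peak. RPS27L had SMC1 peaks in each condition and its parent RPS27 had none. RPL3L, which muscle expresses, and RPL10L, a gene of the testis, had no peak in any list, and the nearest peak to RPL10L in any list was more than 1 Mb from its 5′ end, at 1397263 bp.

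The last group was a chosen set of 6 members among those known to bind MDM2. RPL26 was in every list, and RPL5 and RPS14 were in the 3 CTCF lists and in SMC1 control and ICM. RPL5 stood at CTCF percentile 76.3, 85.7 and 70.9 and at SMC1 percentile 51.7 and 56.3. RPS14 stood at CTCF percentile 68.3, 84.6 and 71.9 and at SMC1 percentile 20.1 and 55.0. RPL11, which acts with RPL5 on MDM2, entered the SMC1 list after ICM at percentile 0.2, at the foot of that list. RPL23 and RPS7 had no promoter peak in any list.

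Both antibodies were listed at 16 members in control (19.5%, against 8.90% of all genes), 13 after ICM (15.9%, against 11.6%) and 10 in senescent cells (12.2%, against 7.78%). Of members with a CTCF peak, 16 of 20 also had an SMC1 peak in control (84.1% of all genes with a CTCF peak), 13 of 20 after ICM (77.2%) and 10 of 18 in senescent cells (69.1%). The exact intervals, 56.3 to 94.3, 40.8 to 84.6 and 30.8 to 78.5, contained the share of all genes each time. RPL5, RPL32, RPLP0, RPS14 and RPS15 had CTCF in all 3 lists and SMC1 in control but not in senescent cells. Where both peaks were listed, their summits lay a median of 55.5 bp apart in control, 65 bp after ICM and 66.5 bp in senescent cells, and within 100 bp at 10 of 16, 10 of 13 and 8 of 10 members. Neither these distances nor that combination of lists was computed over all genes, so neither can be called particular to members. In all 6 lists 8 members were present (9.76%, against 5.72%), among them RPL10A, RPL26, RPL27, RPL35, RPL36, RPL39L and RPS19. None of the 8 hosts a small nucleolar RNA, whereas 29 of the 82 members do. With so few genes this is a tally only, and it was not set beside all genes.

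Member peaks sat just upstream of the start. The median SMC1 summit lay at -93.5, -117 and -150.5 bp from the 5′ end (negative is upstream) in control, ICM-treated and senescent cells, and 37 of 46, 39 of 45 and 23 of 30 summits lay on the upstream side. Other genes also had most SMC1 summits upstream (67.7%, 66.7% and 60.8%), with medians of -78, -79 and -72.5 bp. CTCF summits lay upstream at 15 of 20, 14 of 20 and 15 of 18 members, with 60.8%, 58.7% and 67.1% for other genes. Without the 18 members whose window holds the start of another protein-coding gene, 29 of 35, 29 of 32 and 17 of 22 SMC1 summits were upstream. The peak itself covered the 5′ end at 44 of 46, 43 of 45 and 27 of 30 members for SMC1, and at 87.1%, 82.4% and 81.8% of other genes. The RPL26 CTCF summits were 254, 210 and 378 bp upstream, farther from the start than the CTCGCGAG palindrome, and the RPL36 summits were at 0, 0 and 51 bp.

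**Figure D5:**
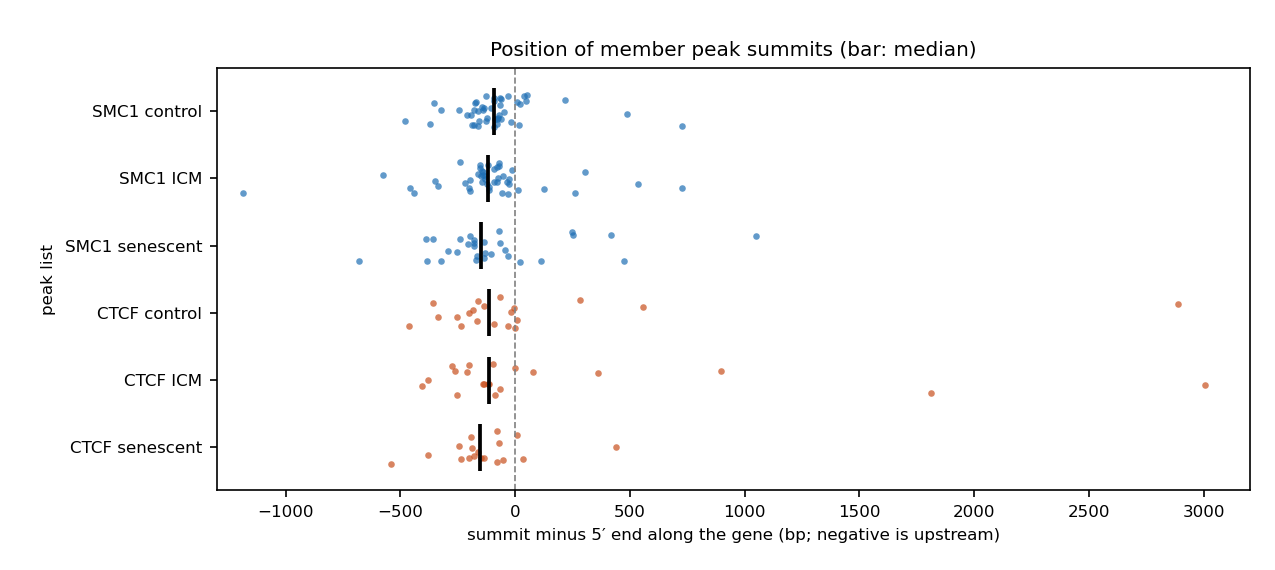
Each point is the summit of a member promoter peak, placed by its distance in bp from the 5′ end along the gene (negative is upstream), with 1 row per list and a black bar at the median. Most points lie a short way upstream of the 5′ end, and the far points to the right are RPL41 and RPL3 in the CTCF lists.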

How the data were processed

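CUT&Tag peak lists from 6 IMR90 libraries were used. Per the labels and the methods of the study, the authors mapped reads to hg38 with Bowtie2 (2.3.4.1), used Picard (2.20.7) and deepTools, scaled by E. coli spike-in reads and called peaks per library with SEACR (1.3), stringent, top 1%. Versions come from the submitters' processing notes. Each deposited list gives a peak's total signal and highest signal, both whole numbers with no known common scale, so they were only ranked within a list, as percentiles with ties at their mean rank.

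Each gene's outermost 5′ end in RefSeq (GRCh38.p14) was used. Strand came from the RefSeq promoter table for 15812 genes and from GENCODE v44 by symbol for 3818, and 98.3% of 19974 protein-coding genes were placed. Where several peaks overlapped a window, that of highest total signal was used. Intervals are exact (Clopper-Pearson, 95%), and no test between conditions was possible with 1 library per group. Members, gene lists and motifs were chosen with earlier results of these data known. Genes were named by role group (stalk, carrier, L-suffix paralogs, MDM2 binding) and, per antibody, by rank. Up to 6 were taken by mean percentile among members in all 3 lists. Up to 6 of highest percentile were also taken in control without senescent, in senescent without control, in ICM alone and, for CTCF, in each list. Overlap counting was tested on simulated peaks with Python 3.11.15, pandas 2.3.3 and SciPy 1.17.1. Figures used matplotlib 3.10.9. Alternatives covered the window, the summit, list length, neighbouring starts, chromosomes 8 and X and, added after seeing the data, other RefSeq starts and percentiles from lists of equal length. Values of some single genes are not reported here, although they are in the counts.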

Additional observations from a re-analysis of the deposited data

Results flagged for a closer look

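At RPL3 and RPS3A the antibodies went opposite ways between control and another condition, and this difference was not tested. RPL3 had an SMC1 promoter peak in control at percentile 60.5 and none after ICM, and it had a CTCF promoter peak after ICM at percentile 87.4 and none in control. That CTCF peak began 912 bp from the 5′ end, with its summit 3006 bp inside the gene, and the control list holds a CTCF peak 1237 bp away. RPS3A had an SMC1 promoter peak in control at percentile 61.8 and none in senescent cells, where a CTCF promoter peak was listed at percentile 48.8. A window of 2 kb also takes in that RPL3 control peak, so the CTCF difference at RPL3 holds for the 1 kb window and not for 2 kb. The part of list length in these differences was not tested.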

How the results depend on the processing

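With 1 library per group no result has a replicate error, and a peak that leaves a list may still be bound. Of 222 values computed under another setting, 219 stayed within 1.5 times the main value or, for medians, within its 95% order-statistic interval. Median percentiles and median widths were not recomputed with lists of equal length, so this tally does not cover them there. With lists of equal length by total signal, members listed for SMC1 after ICM alone made up 3.66% in place of 8.54%. With equal lengths by highest signal both antibodies were listed after ICM at 8.54% of members in place of 15.9%. Members with a higher CTCF percentile in senescent cells than in control were 25% in place of 60.0% with equal lengths, and over all genes the share was 31.2% in place of 55.5%. Members with a higher CTCF percentile after ICM than in control were 63.2% in place of 94.7%. Over all genes that share was 53.5% in place of 79.1%. The member value lay at the limit of 1.5 times and was counted among the 219, so that limit lets large shifts pass. The cause of these differences was not tested. Windows of 0, 0.5 and 2 kb, the summit rule, members without a neighbouring start, members outside chromosomes 8 and X, percentiles by highest signal and both choices of RefSeq starts moved none of the values computed under them past those limits. With only the starts of the RefSeq promoter table, RPL6 left the CTCF control and ICM lists. No paired analysis was possible because no result comes from a test.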
